A study of Mus musculus with 9 samples.

Results

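Kinesins are motor proteins that walk along microtubules, and the genes described here are the Kif family of the mouse extrahepatic bile duct (EHBD). Members were the protein-coding genes of the GENCODE mouse annotation whose symbol is Kif followed by a number and, for some, a letter. Of the 55822 gene IDs counted, 39 met this rule, and 36 of these had the 10 counts over all libraries that were needed for a test, among 21299 genes tested. The members were sorted by their known roles into 12 mitotic, 9 ciliary and 10 transport kinesins and 8 others.

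Kinesins use ATP hydrolysis to step along microtubules or, in some subfamilies, to take microtubules apart at their ends. Mitotic kinesins build and shape the spindle, move chromosomes and complete cytokinesis, and their transcripts are made mainly in dividing cells late in the cell cycle. Transport kinesins carry organelles and vesicles, many of them along axons, whereas ciliary kinesins drive intraflagellar transport or set the length and beating of cilia, and cholangiocytes bear primary cilia.

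Whole EHBDs of adult C57BL/6 mice were profiled by bulk RNA-Seq 24 hours after surgery. In 5 mice the duct was tied off at its distal end, next to the duodenum (bile duct ligation, BDL), and 4 sham mice had the laparotomy without a ligature. The sham group held 2 females (replicates 5 and 7) and 2 males (1 and 2), and the BDL group 3 females (4, 6 and 8) and 2 males (3 and 10). The deposited column headers carry a mouse number of short form for sham 5 and 7 and BDL 4 and 6, all females, and of long form for the other 5 mice. Among the long numbers, those of sham 1, sham 2 and BDL 3 lie close together. The numbers of BDL 8 and 10 form a separate run that holds no sham mouse. What the form and the runs of the numbers stand for is not given in the sources used here. Each mouse gave 1 library, the labels name no allele or drug in either group, and all members are described from the same 9 libraries.

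Libraries held 24101163 to 27025227 counts in sham and 23067967 to 29991945 in BDL. A set of 15 acinar genes of the pancreas, which lies against the distal duct, took 15.1% to 36.8% of the counts in sham libraries and 0.00989% to 2.40% after BDL, so that this share separated the groups as surgery did. The biliary keratins Krt7 and Krt19 and the epithelial marker Epcam were present in every library. Of the 36 pairs of libraries none were identical. Values of single libraries below are normalized counts, counts divided by the size factor of the library, and they are given in the order sham 1, 2, 5 and 7 and BDL 3, 4, 6, 8 and 10. Size factors ran from 0.434 to 1.17 in sham and from 1.22 to 1.63 in BDL. The same normalized count thus rests on fewer counts in a sham library than in a BDL library.

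At 24 hours after BDL the mitotic kinesins rose, whereas transport and ciliary kinesins fell or did not pass the test, with Kif5b and Kif24 as the exceptions that rose. Of the 36 tested members, 13 were higher (36.1%) and 12 were lower (33.3%), where a call is an adjusted p under 0.05 in edgeR's quasi-likelihood test with Benjamini-Hochberg adjustment over all tested genes. Over all 21299 tested genes 21.4% were higher and 19.9% lower, 41.4% in either direction, so a call by itself was common in this comparison. Libraries of the groups did not overlap in 13 members with BDL above and in 9 with BDL below, against 19.2% and 19.0% of all tested genes, 38.2% in either direction. All 11 tested mitotic members were higher, with a median log2 fold change of 5.91. This median stayed at 5.91 with Kif14, at 0 counts in sham, set against a chosen floor of 3 sham counts. Other mitotic members also rest on few sham counts. Before normalization and summed over the sham libraries, Kif18b had 23, Kif15 24, Kif2c 31 and Kif4 42. The medians were -0.71 for the 10 transport members, -0.54 for the 9 ciliary members and -0.02 for the 6 tested others, beside -0.03 over all tested genes. Kif2a, which is active in mitosis and outside it, was placed with the others and was not called. That every tested mitotic member was higher depends on this placement. In whole tissue, more or fewer cells of a type and more or less RNA per cell cannot be told apart.

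**Figure D1:**
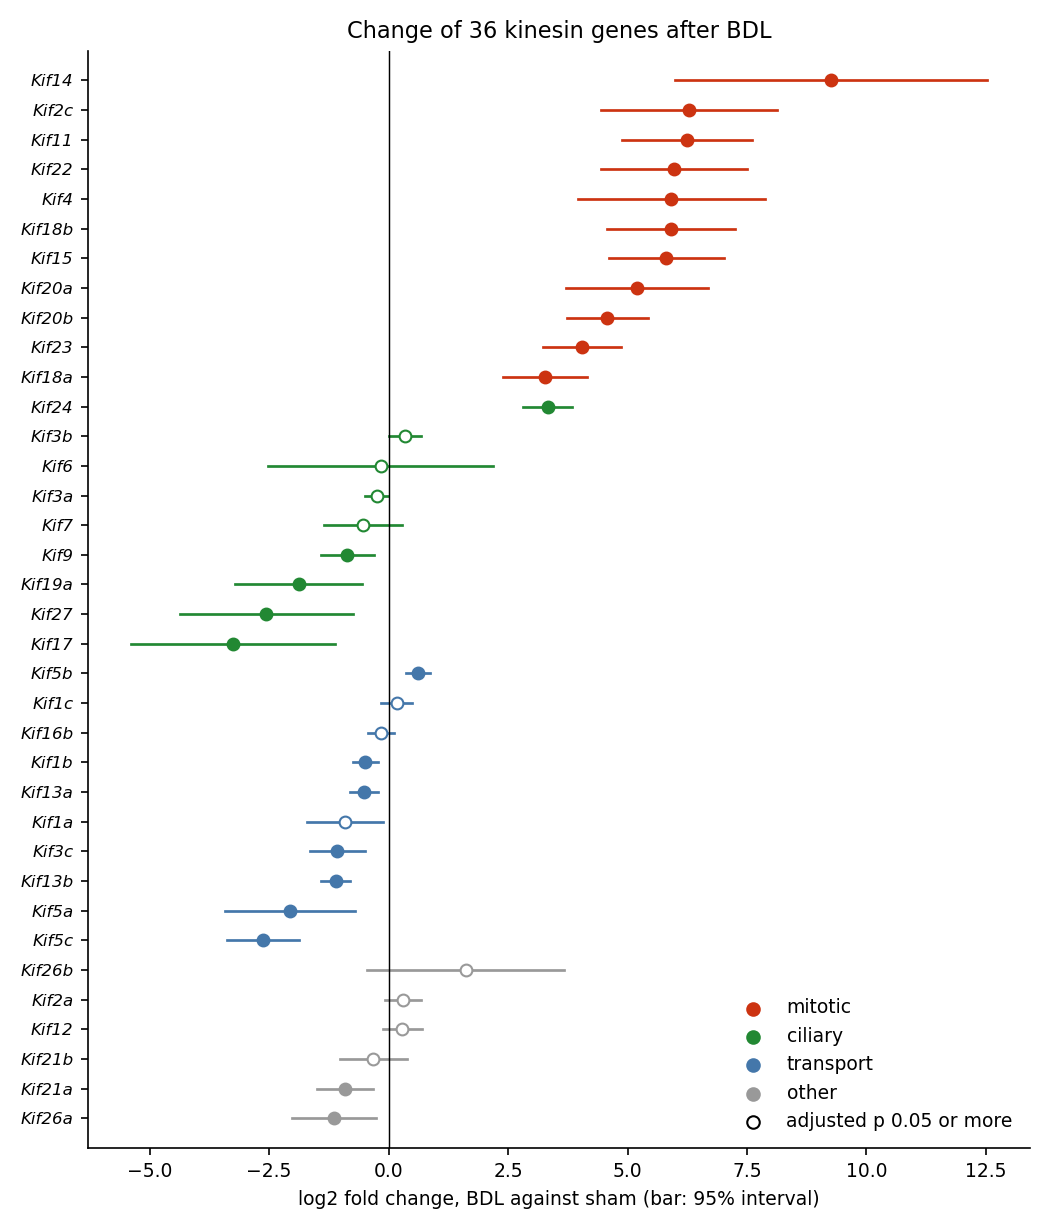
Log2 fold changes of the 36 tested kinesin genes, BDL against sham, with 95% intervals as bars, colored by class and with open points where the adjusted p was 0.05 or more. The 11 mitotic points lie at 3.27 or higher, and only Kif24 of the other classes does so. The point of Kif14, which was at 0 counts in every sham library, is a fitted value and not a measured fold.

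The makeup of the kinesin transcripts differed between the groups by the mitotic class. Levels were compared between genes per kb of the canonical transcript. Mitotic kinesins summed to 120.0 ± 26.4 normalized counts per kb (SD, n = 4) in the sham group and to 3386 ± 1739 (SD, n = 5) in the BDL group. Mitotic kinesins made up 3.76%, 5.72%, 6.06% and 5.88% of the summed kinesin level in sham libraries, and 62.0%, 42.2%, 38.4%, 70.0% and 68.0% in BDL libraries. The groups did not overlap, and the lowest BDL share stood far above the highest sham share. Transport kinesins held 60.7% to 64.4% of the kinesin level in sham and 20.5% to 41.2% after BDL, although their summed level was 1380.0 ± 57.3 per kb in sham and 1562 ± 120 after BDL. Ciliary kinesins summed to 284 ± 28.8 per kb in sham and 266 ± 10.9 after BDL. The transport sum was carried by Kif5b. The other 9 transport members summed to 622 ± 44.4 per kb in sham (lowest library 559.5) and to 428 ± 22.2 after BDL (highest library 456). Leaving out Kif5b takes out the only transport member called higher, so this lower sum follows in part from that choice. The total of all kinesins was 2234 ± 104 per kb in sham and 5683 ± 1712 after BDL.

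**Figure D2:**
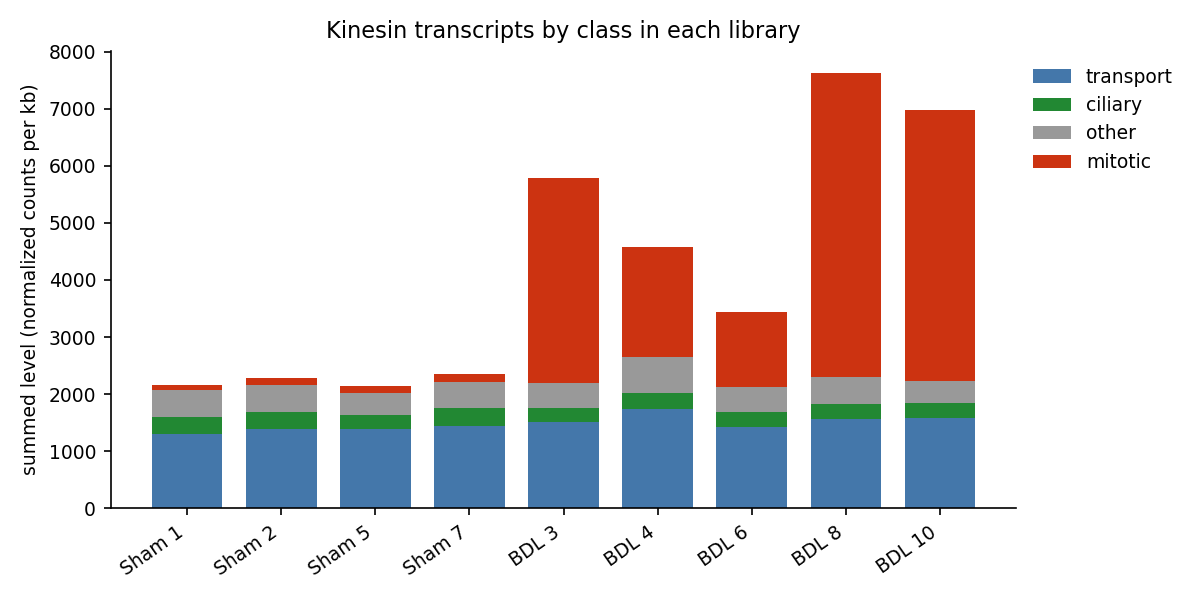
Stacked bars of the summed kinesin level in each library, in normalized counts per kb of canonical transcript, split into transport, ciliary, other and mitotic members. The mitotic part runs from 80.8 to 138 in sham libraries and from 1322 to 5346 in BDL libraries, while the transport part stays between 1305 and 1743 in all 9.

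Ranked by mean level per kb, the sham EHBD was led by Kif5b (758), Kif12 (310), Kif16b (178), Kif3a (152) and Kif1b (126), which are transport, ciliary or cholangiocyte-associated members. After BDL the order was Kif5b (1134), Kif23 (927), Kif22 (583), Kif20a (455) and Kif11 (394), so that 4 of the first 5 were mitotic. Kif23, the mitotic member of highest level per kb in both groups, stood at 58.5 per kb in sham.

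The mitotic kinesins are described by their place in division, beginning with the promoters of members on which later sentences draw. Stretches of the 250 bases before the start of the canonical transcript are shown for Kif23 and Kif22, the only mitotic members with a match to both motifs searched, for Kif18b as a mitotic member with CCAAT matches alone, and for Kif24 as the ciliary member that rose. They were read from the GRCm39 genome with GENCODE vM39 starts and are written 5′ to 3′ on the strand of the gene. Capitals mark matches on either strand to a pair of motifs known from promoters of late cell cycle genes. The first is the CHR, with the letters TTTGAA (read TTCAAA where the match is on the other strand) or the self-complementary variant TTCGAA. The second is the CCAAT box, with the letters CCAAT (read ATTGG where the match is on the other strand), and the motifs share no position in these stretches.
Kif23, mitotic, chr9:61854074-61854323, minus strand: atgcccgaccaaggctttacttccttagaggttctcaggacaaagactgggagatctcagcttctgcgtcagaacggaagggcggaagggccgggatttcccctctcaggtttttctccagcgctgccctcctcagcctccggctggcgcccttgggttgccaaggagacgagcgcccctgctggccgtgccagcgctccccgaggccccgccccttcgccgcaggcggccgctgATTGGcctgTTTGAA
Kif22, mitotic, chr7:126641644-126641893, minus strand: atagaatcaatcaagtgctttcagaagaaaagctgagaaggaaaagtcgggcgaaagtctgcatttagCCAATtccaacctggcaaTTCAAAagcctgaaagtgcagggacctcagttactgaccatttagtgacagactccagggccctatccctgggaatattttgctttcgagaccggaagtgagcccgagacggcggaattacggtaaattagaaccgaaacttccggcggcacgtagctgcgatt
Kif18b, mitotic, chr11:102815957-102816206, minus strand: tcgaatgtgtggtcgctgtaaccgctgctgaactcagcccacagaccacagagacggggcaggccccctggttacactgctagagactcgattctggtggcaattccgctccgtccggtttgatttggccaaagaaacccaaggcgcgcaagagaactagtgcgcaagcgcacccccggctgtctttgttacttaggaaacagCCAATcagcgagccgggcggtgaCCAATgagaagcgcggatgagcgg
Kif24, ciliary, chr4:41464902-41465151, minus strand: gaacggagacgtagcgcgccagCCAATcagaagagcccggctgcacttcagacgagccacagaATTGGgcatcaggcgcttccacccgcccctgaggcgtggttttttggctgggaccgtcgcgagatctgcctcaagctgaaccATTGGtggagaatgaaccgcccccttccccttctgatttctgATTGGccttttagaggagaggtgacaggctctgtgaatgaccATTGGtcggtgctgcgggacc

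In Kif23 the CCAAT letters began 15 bases and the CHR letters 6 bases before the start. In Kif22 the CCAAT letters began 182 bases and the CHR letters, on the other strand, 164 bases before the start. Kif18b held CCAAT matches 47 and 24 bases before its start, and Kif24 held 5 CCAAT matches, from 228 to 21 bases before it. The CHR letters were in 4 of 12 mitotic promoters (33.3%, in Kif15, Kif20a, Kif22 and Kif23), in 0 of 9 ciliary, 0 of 10 transport and 1 of 8 other promoters (12.5%, in Kif26b, which also held CCAAT and was not called), and in 16.9% of 21576 protein-coding promoters. CCAAT letters were in 7 of 12 mitotic (58.3%), 4 of 9 ciliary (44.4%), 2 of 10 transport promoters (20.0%) and 2 of 8 others, and in 36.4% of all. The 7 mitotic promoters include that of Kif2b, which had 0 counts in every library. CHR letters starting in the last 100 bases were in 1 of 12 mitotic promoters (8.33%), that of Kif23, and in 5.06% of all. Both motifs were in 2 of 12 mitotic promoters (16.7%) and in 6.61% of all. Kif18a, Kif20b and Kif2c, which rose too, held neither motif in this window. These are matches of letters, not binding sites, and the counts are small.

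Among the kinesins that build the spindle, Kif11, the tetrameric motor that pushes spindle poles apart (ENSMUSG00000012443, chromosome 19 from 37364799 to 37410307), had normalized counts of 11.1, 45.3, 22.3 and 34.6 in sham libraries and 2164, 969.8, 666, 2691 and 3098 in BDL libraries. Every BDL library stood above every sham library, with BDL 10 highest and BDL 6 lowest. Its log2 fold change was 6.25 (SE 0.61, adjusted p = 6.78e-05). Kif15, which keeps spindles bipolar beside Kif11 (ENSMUSG00000036768, chromosome 9 from 122780111 to 122847806), had 5.99, 10.9, 3.93 and 18.4 in sham and 428, 353, 234, 713 and 671 after BDL. The groups lay more than an order of magnitude apart, with a log2 fold change of 5.81 (SE 0.54, adjusted p = 5.27e-05).

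The chromokinesins bind chromosome arms and push them toward the spindle equator. Kif22 (ENSMUSG00000030677, chromosome 7 from 126626898 to 126641643) had 11.1, 29.0, 15.7 and 32.3 in sham and 1427, 492, 377, 2107 and 1762 after BDL. It rose with a log2 fold change of 5.98 (SE 0.68, adjusted p = 0.000157). Kif4, which also shortens the central spindle together with Prc1 (ENSMUSG00000034311, chromosome X from 99669343 to 99770946), had 1.71, 10.9, 43.3 and 2.31 in sham and 789, 508, 307, 1376 and 1340.3 after BDL. Sham 5 stood above the other sham libraries and still below every BDL library. The log2 fold change of Kif4 was 5.92 (SE 0.87, adjusted p = 0.000613), and it was 7.84 without sham 5. The kit did not keep the strand, and 18.0% of the exon bases of Kif22 and 11.1% of those of Kif4 overlap exons of Gm31749 and Pdzd11 on the other strand. Pdzd11 had a log2 fold change of 0.84, and Gm31749 averaged 0.667 normalized counts in sham and 0 after BDL. The pseudogenes Kif4-ps and Kif22-ps had 0 counts in every library.

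Kinesins that set microtubule length and correct attachments rose with them. Kif18a, which damps the movements of chromosomes at the spindle equator (ENSMUSG00000027115, chromosome 2 from 109111083 to 109173023), had 51.4, 39.9, 81.3 and 46.1 in sham and 554, 339.9, 266, 793 and 637 after BDL. This was the smallest change of the class, a log2 fold change of 3.27 (SE 0.39, adjusted p = 0.000208). Its relative Kif18b, which acts on astral microtubules (ENSMUSG00000051378, chromosome 11 from 102796348 to 102815956), had 3.42, 12.7, 5.24 and 18.4 in sham and 575, 274, 242, 756 and 686 after BDL. From a lower sham level, Kif18b rose with a log2 fold change of 5.91 (SE 0.60, adjusted p = 8.53e-05). The depolymerase Kif2c, which removes faulty kinetochore attachments (ENSMUSG00000028678, chromosome 4 from 117016830 to 117039836), had 5.99, 1.81, 27.5 and 4.61 in sham and 916, 371, 245, 1435 and 1055 after BDL. Sham 5 was again the highest sham library, and the log2 fold change of 6.28 (SE 0.82, adjusted p = 0.000327) became 7.65 without it. The related depolymerase Kif2b had 0 counts in all 9 libraries.

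The kinesins of the central spindle and of cytokinesis included the most abundant mitotic member. Kif23, which with Racgap1 forms the centralspindlin complex (ENSMUSG00000032254, chromosome 9 from 61823187 to 61854074), had 139.5, 214, 178 and 267 in sham and 3039.9, 2398, 1592, 4595 and 4211 after BDL. Even the highest sham library held far less than BDL 6, the lowest after BDL, and the log2 fold change was 4.05 (SE 0.37, adjusted p = 4.65e-05). Kif20a, which brings the Aurora B complex to the central spindle (ENSMUSG00000003779), had 36.8, 83.4, 70.8 and 30.0 in sham and 2091, 857, 500.0, 3487 and 2747 after BDL. It rose with a log2 fold change of 5.20 (SE 0.66, adjusted p = 0.000281). Exons of Cdc23 on the other strand cover 54.8% of the exon bases of Kif20a, and Cdc23 itself had a log2 fold change of 0.36 (adjusted p = 0.0891).

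Kif20b, a motor of late cytokinesis (ENSMUSG00000024795, chromosome 19 from 34899752 to 34953149), had 39.4, 39.9, 52.4 and 48.4 in sham and 1115, 705, 495, 1485 and 1388 after BDL. Its sham libraries were close together, and its log2 fold change of 4.58 (SE 0.38, adjusted p = 3.28e-05) had the smallest adjusted p of the class. Kif14, which recruits citron kinase to the midbody (ENSMUSG00000041498, chromosome 1 from 136394081 to 136459249), had 0 counts in all 4 sham libraries and 55.5, 22.9, 28.8, 141 and 88.3 after BDL. Set against a chosen floor of 3 counts summed over the 4 sham libraries, it was 65.4-fold higher after BDL. Without sham 1, the sham library of largest size factor, this became 39.2-fold. The floor takes no account of the spread between mice, so these folds are not strict bounds. The adjusted p of Kif14 was 0.00205. Kif14 was thus the tested mitotic member of lowest level after BDL, 7.53 normalized counts per kb.

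**Figure D3:**
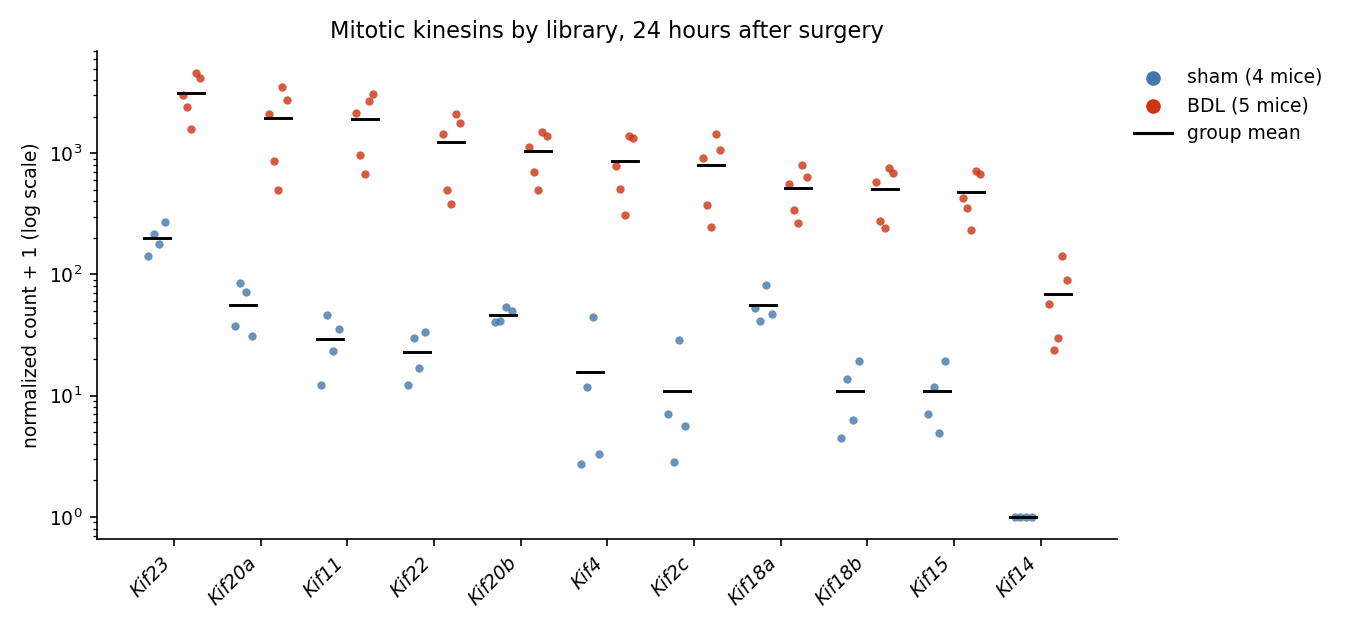
Normalized count plus 1 of the 11 tested mitotic kinesins in each library, on a log scale, with 4 sham and 5 BDL mice and the group mean as a line. In each gene the lowest BDL point stands above the highest sham point, and Kif14 is at 0 counts in all 4 sham libraries.

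The BDL libraries differed among themselves by 2.89-fold in Kif23 to 6.97-fold in Kif20a, and they did so in nearly the same order for each gene. BDL 4 and 6 were the lowest pair in all 11 mitotic members, BDL 3 was the middle library in all 11, and BDL 8 and 10 were the highest pair in all 11. BDL 8 was highest in 10 members and BDL 10 in 1, Kif11. The summed normalized counts of 14 spindle partners, genes that work with these motors, stood in the same order, with 9611 in BDL 6, 13408 in BDL 4, 27865 in BDL 3, 34874 in BDL 10 and 40869.9 in BDL 8. BDL 4 and 6 are the BDL libraries with short mouse numbers, whereas BDL 8, the third female, has a long one. The numbers of BDL 8 and 10 lie together, apart from the number of BDL 3, which lies near those of sham 1 and 2. The lowest pair, the middle library and the highest pair thus also differ by run of mouse numbers. The part of these runs in the order was not tested. In the 4 libraries with short numbers alone, 2 of each group, 10 mitotic members were called and Kif4 had an adjusted p of 0.0512, and Kif18a had a log2 fold change of 2.27, Kif22 of 4.26 and Kif2c of 4.18. In the 5 libraries with long numbers 11 were called, and these members were at 3.86 (Kif18a), 6.66 (Kif22) and 7.96 (Kif2c), and the difference between the forms was not tested. That fit sets BDL 8 and 10 against sham mice from another run of numbers. With the form of the number in the fit in place of sex, all 11 were called. Other sums also differed among BDL libraries. The 7 fibroblast markers summed to 12890 in BDL 4, 48030 in BDL 6, 54824 in BDL 3, 98616 in BDL 10 and 100152 in BDL 8, the same pairs and middle library as for the mitotic members. The summed acinar level was lowest in BDL 6 (1739) and BDL 4 (2488) and highest in BDL 3 (465324), and leukocyte markers were lowest in BDL 4 (2705) and highest in BDL 6 (20571). The part of these cells in the order was not tested. Among sham libraries no such order was seen, as sham 1 was lowest in 6 of 10 members and the highest library changed from gene to gene.

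**Figure D4:**
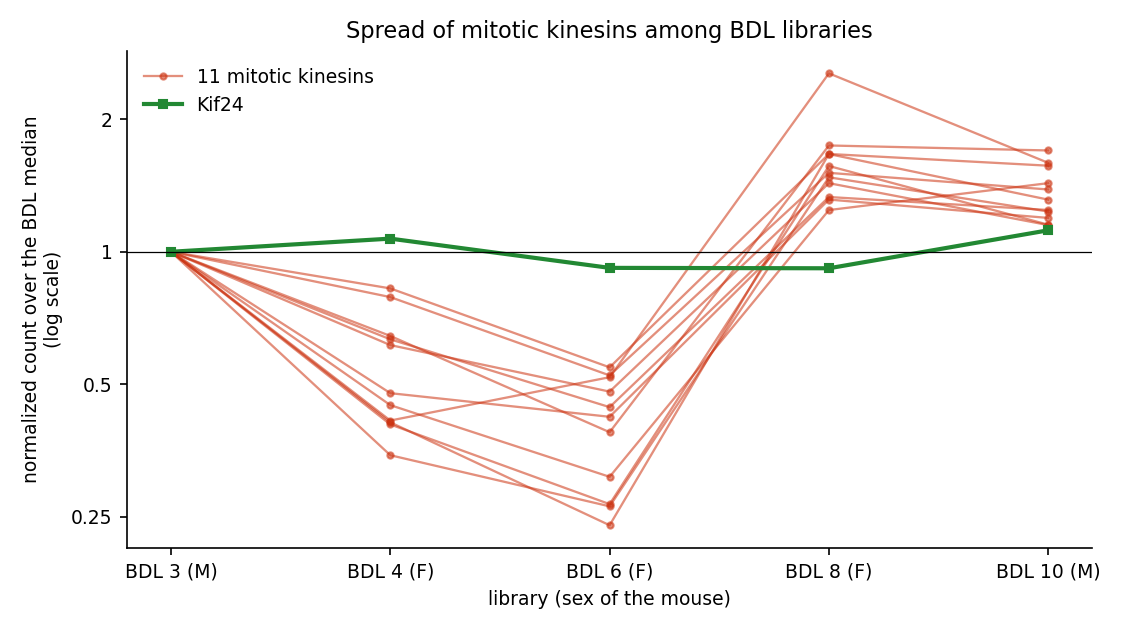
Normalized count of each of 11 mitotic kinesins (red) and of Kif24 (green) in the 5 BDL libraries, divided by the BDL median of the gene, on a log scale, with the sex of the mouse. The red lines dip at BDL 4 and 6 and rise at BDL 8 and 10, whereas Kif24 runs from 161 to 197 normalized counts, a 1.22-fold spread.

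All 11 mitotic calls held with each library left out in turn. They also held when the acinar level was added to the fit, where their log2 fold changes ran from 4.41 (Kif18a) to 8.24 (Kif2c) in the 10 members with sham counts. In males alone 11 were called and in females alone 10, where Kif14 had an adjusted p of 0.0501. No member had an interaction of sex and surgery that passed the test, and over all 21299 genes 0 passed it in edgeR's quasi-likelihood test, with 544 at an unadjusted p under 0.05, Kif26b being the only member among them.

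The partners of the mitotic kinesins rose as well: all 14 of 14 spindle genes were higher, with a median log2 fold change of 5.45. Beside this, 21.4% of all tested genes were higher. Smallest in p were Cdca8, a subunit of the Aurora B complex (5.17, adjusted p = 2.89e-05), Ect2, which starts furrow ingression (4.79, adjusted p = 3.91e-05), Racgap1, the partner of Kif23 (5.26, adjusted p = 3.95e-05), and Birc5, another subunit of the Aurora B complex (7.08, adjusted p = 4.49e-05), with log2 fold changes in parentheses. The list also held 2 kinesins named by other rules, Cenpe and Kifc1. Reads of Kifc1 and its near-identical relative Kifc5b, which rose with a log2 fold change of 2.84, may be shared in the counting, so the value of Kifc1 is uncertain.

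Among the 9 ciliary kinesins 1 gene, Kif24, rose and 4 fell, and the other 4 were not called. These counts stand beside 21.4% higher and 19.9% lower over all tested genes. Kif24, a depolymerase at the mother centriole that holds back cilium assembly together with Ccp110 (ENSMUSG00000028438, chromosome 4 from 41389632 to 41464901), had 18.0, 14.5, 21.0 and 18.4 in sham and 176, 188, 162, 161 and 197 after BDL. The libraries of each group were close together and the groups did not overlap. It rose from 18.0 ± 2.66 (SD, n = 4) to 177 ± 15.8 (SD, n = 5), a log2 fold change of 3.33 (SE 0.23, adjusted p = 1.39e-05), the smallest adjusted p in the family. The BDL libraries did not take the order seen for the mitotic kinesins, with the lowest value in BDL 8. Exons of Ubap1 on the other strand cover 9.31% of its exon bases, and Ubap1 had a log2 fold change of 0.19 (adjusted p = 0.169). Kif24 stayed called under each of the 24 alternatives, with log2 fold changes from 3.12 to 3.52.

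Neither motor subunit of the kinesin-2 complex that drives intraflagellar transport passed the test in the fit reported, although Kif3a lay close to the threshold. Kif3a, the ciliary member of highest level per kb (ENSMUSG00000018395, chromosome 11 from 53458168 to 53495071), had 819, 885, 714 and 911 in sham and 671, 700.3, 731, 651 and 638 after BDL. The groups overlapped at sham 5, and the log2 fold change of -0.25 (95% interval -0.49 to -0.01, adjusted p = 0.0862) did not pass. It passed without sham 5 (log2 fold change -0.34, adjusted p = 0.0317), and also with DESeq2 (-0.29, adjusted p = 0.0309), with upper-quartile scaling (-0.40, adjusted p = 0.0140) and with the stricter filter on low counts (-0.30, adjusted p = 0.0352). Kif3b, its partner in the motor, had a log2 fold change of 0.35 (95% interval 0.02 to 0.68, adjusted p = 0.0849), with 329 to 486 in sham and 469.9 to 568 after BDL. Kifap3, the subunit that links this motor to its cargo, had -0.25 (adjusted p = 0.228). Kif7, which acts in Hedgehog signaling at the tip of the cilium, had 21.4 to 44.6 in sham and 18.2 to 28.8 after BDL, with a log2 fold change of -0.54 (adjusted p = 0.266). Its value is uncertain, as exons of 9330171B17Rik on the other strand cover 24.0% of its exon bases. Exons of Ticrr, which rose with a log2 fold change of 7.82, cover another 1.34% on that strand.

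The 4 ciliary members that fell were at low levels, and 3 of them are known from motile cilia. Kif9, of the motile axoneme (ENSMUSG00000032489, chromosome 9 from 110305569 to 110355804), had 134, 83.4, 119 and 122 in sham and 58.4, 75.4, 78.1, 64.4 and 42.6 after BDL, without overlap. The log2 fold change was -0.87 (SE 0.25, adjusted p = 0.0187), and the call ended without sham 1 (adjusted p = 0.0606) or BDL 10 (0.0552). Kif27, a relative of Kif7 in motile cilia (ENSMUSG00000060176, chromosome 13 from 58432546 to 58506936), had 27.4, 30.8, 43.3 and 53.0 in sham and 1.46, 4.10, 22.6, 0.613 and 6.20 after BDL. BDL 6 stood apart from the other BDL libraries, and the log2 fold change of -2.56 (SE 0.81, adjusted p = 0.0295) became -3.55 without it. This call was lost in 7 of the 9 fits that left out 1 library, with adjusted p from 0.0501 to 0.0722 in those fits, and was kept without BDL 6 or BDL 8.

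Kif19a, which limits the length of motile cilia (ENSMUSG00000010021, chromosome 11 from 114656214 to 114681565), had 27.4, 27.2, 17.0 and 92.2 in sham and 10.9, 8.19, 6.16, 22.1 and 6.20 after BDL. Sham 7 was far above the other sham libraries, and BDL 8 overlapped with sham 5. The log2 fold change was -1.88 (SE 0.59, adjusted p = 0.0290), it was -1.14 without sham 7 (adjusted p = 0.192), and the call also ended without sham 1 (0.0563), sham 2 (0.0513), BDL 4 (0.0542), BDL 6 (0.0556) or BDL 10 (0.0670). Kif17, a kinesin-2 motor of sensory cilia (ENSMUSG00000028758, chromosome 4 from 137977746 to 138031605), had 19.7, 23.6, 23.6 and 4.61 in sham and 5.11, 0, 2.05, 1.23 and 0 after BDL. Its groups overlapped at sham 7 and BDL 3, and the log2 fold change was -3.25 (SE 0.95, adjusted p = 0.0214), -4.20 without BDL 3 and -2.61 without sham 5, where the call ended (adjusted p = 0.116). Kif6, another gene of the motile axoneme, had 0 to 23.6 in sham and 4.10 to 9.20 after BDL and did not pass (adjusted p = 0.918).

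Markers of multiciliated cells were scarce and, summed, lower after BDL. Their 8 genes summed to 188 to 307 normalized counts in sham and 57.6 to 162 after BDL. Of the 6 tested 1 was lower, where 19.9% of all tested genes were lower. The motile dyneins Dnah5 and Dnah9 had too few counts for a test. Summed over libraries, Dnah5 had 3 counts in sham and 0 after BDL, and Dnah9 had 1 and 5. The highest BDL sum, 162, was in BDL 6, the library that among BDL libraries was also highest in Kif27 and Kif9 and lowest in Kif19a. The part of these cells in the fall of Kif9, Kif19a and Kif27 was not tested.

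Of 16 ciliary partner genes, 3 rose, 5 fell and 8 did not pass, with a median log2 fold change of -0.22. Over all tested genes 21.4% were higher and 19.9% lower, so these few calls do not set the list apart. The 3 that rose were Ccp110, which caps the mother centriole with Kif24 (1.08, adjusted p = 0.000519), and the intraflagellar transport genes Ift74 (0.60, adjusted p = 0.00320) and Ift27 (0.37, adjusted p = 0.0451). Those that fell, smallest in p first, included Ift122 (-0.90, adjusted p = 0.000653), of the retrograde complex, and Ift172 (-1.04, adjusted p = 0.00221), Ift20 (-0.87, adjusted p = 0.00515) and Ift46 (-0.73, adjusted p = 0.0163), of the anterograde complex. Ccp110 had 156, 167, 148 and 171 in sham and 333, 371, 307, 272 and 348 after BDL, so its groups did not overlap. Cep97, the other partner of Ccp110, had a log2 fold change of -0.42 (adjusted p = 0.161).

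Among the 10 transport kinesins 1 gene, Kif5b, rose and 6 fell, and the other 3 were not called. Over all tested genes 21.4% were higher and 19.9% lower. Kif5b, the kinesin-1 heavy chain that most tissues use to move organelles (ENSMUSG00000006740), had 4519.7, 4630.2, 4485 and 4742 in sham and 6635, 7955, 6147, 6703 and 6926 after BDL. Each group was tight and the groups did not overlap. It rose from 4594 ± 116 (SD, n = 4) to 6873 ± 668 (SD, n = 5), a log2 fold change of 0.62 (SE 0.11, adjusted p = 0.00171). This call held with each library left out, and in females alone it missed the threshold (adjusted p = 0.0770) at a log2 fold change of 0.62.

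Its paralogs that are best known from neurons fell. Kif5c (ENSMUSG00000026764, chromosome 2 from 49509265 to 49664791) had 74.5, 141, 97.0 and 145 in sham and 21.2, 11.5, 13.7, 20.9 and 21.7 after BDL. Its log2 fold change was -2.62 (SE 0.34, adjusted p = 0.000291), and the groups did not overlap. Kif5a (ENSMUSG00000074657, chromosome 10 from 127060993 to 127103180) had 48.8, 38.1, 69.5 and 6.92 in sham and 7.30, 4.91, 13.7, 8.59 and 12.4 after BDL, with sham 7 inside the BDL range. The log2 fold change of Kif5a was -2.07 (SE 0.61, adjusted p = 0.0215), and the call ended without sham 5 (log2 fold change -1.28, adjusted p = 0.210), sham 1 (0.0539) or BDL 3 (0.0591). Within kinesin-1, the abundant heavy chain thus rose and the 2 scarce ones fell, and per kb Kif5b stood at 758 in sham against 16.6 for Kif5c and 9.53 for Kif5a.

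Kif13b, which carries cargo of the cell cortex such as Dlg1 (ENSMUSG00000060012, chromosome 14 from 64884714 to 65047073), had 581, 555, 578 and 641 in sham and 279, 241, 242, 313 and 251 after BDL. Its level fell by more than the spread of either group, with a log2 fold change of -1.11 (SE 0.13, adjusted p = 0.000210), the smallest adjusted p among transport members. The relative Kif13a, a motor of recycling endosomes (ENSMUSG00000021375, chromosome 13 from 46902563 to 47083687), had 646, 655, 899 and 657 in sham and 409, 513, 494, 520.1 and 519.8 after BDL. Sham 5 was highest and BDL 3 lowest, the groups did not overlap, and the log2 fold change was -0.51 (SE 0.13, adjusted p = 0.0112).

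Kif1b, which moves mitochondria and synaptic vesicle precursors (ENSMUSG00000063077, chromosome 4 from 149260618 to 149410343), had 1219, 1435, 1448 and 1432 in sham and 810.0, 848, 1025, 1033 and 1095 after BDL, a log2 fold change of -0.48 (SE 0.12, adjusted p = 0.0101). Kif3c, a kinesin-2 motor known from neurons (ENSMUSG00000020668, chromosome 12 from 3400262 to 3456494), had 299.6, 169, 232 and 406 in sham and 153, 116, 114, 141 and 114 after BDL, a log2 fold change of -1.07 (SE 0.26, adjusted p = 0.00812). Its value is uncertain, since exons of 1110002L01Rik on the other strand, with a log2 fold change of -0.41 (adjusted p = 0.140), cover 34.6% of its exon bases. The axonal motor Kif1a had 43.7 to 72.5 in sham and 15.3 to 39.5 after BDL without overlap, but its log2 fold change of -0.91 did not pass (adjusted p = 0.0643). It passed without BDL 4 (adjusted p = 0.0450), with DESeq2 (0.0224), with upper-quartile scaling (0.0349), with the stricter filter (0.0387) and without the sex term (0.0499). Kif16b, a motor of early endosomes, and Kif1c, which acts on the Golgi and in migrating cells, had log2 fold changes of -0.16 (95% interval -0.43 to 0.12) and 0.17 (95% interval -0.16 to 0.50) and did not pass.

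**Figure D5:**
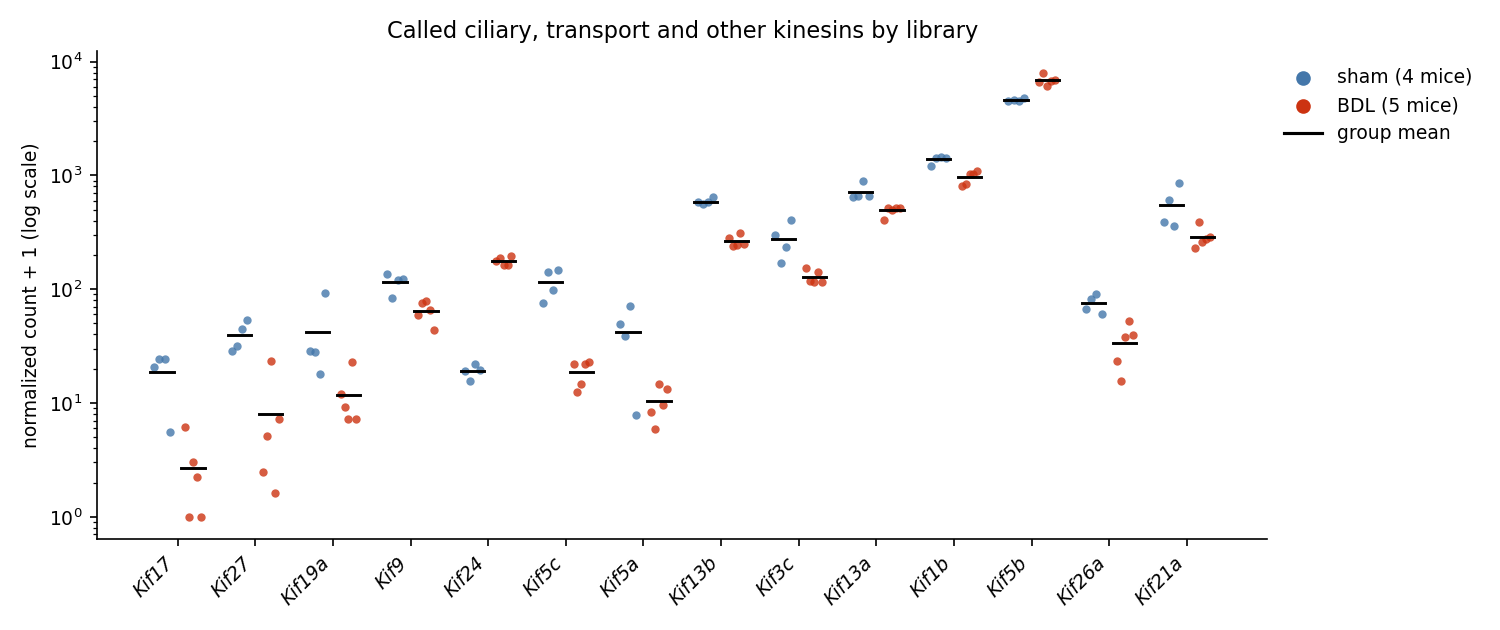
Normalized count plus 1 of the ciliary, transport and other kinesins that passed the test, in each of 4 sham and 5 BDL libraries, on a log scale with group means as lines. Kif24 and Kif5b are the genes with BDL above sham, and points of the groups overlap in Kif17, Kif19a, Kif5a and Kif21a.

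Of 14 transport partner genes, 0 rose, 8 fell and 6 did not pass in edgeR's quasi-likelihood test, with a median log2 fold change of -0.54. Beside these counts, 21.4% of all tested genes were higher and 19.9% lower. The 4 of smallest p that fell were Mapk8ip1 and Mapk8ip3, scaffolds that tie kinesin-1 to its cargo (-1.67, adjusted p = 0.000205, and -1.04, adjusted p = 0.00171), Kifc2, a minus-end motor known from neurons (-3.30, adjusted p = 0.000864), and Trak1, the mitochondrial adaptor (-0.58, adjusted p = 0.00215). The kinesin light chains Klc1, Klc2 and Klc4 had log2 fold changes of -0.04, 0.30 and -0.47 and did not pass, whereas Klc3 fell (-0.93, adjusted p = 0.0160).

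Markers of cells other than cholangiocytes differed beside the fall of transport kinesins. The counts below stand beside 21.4% higher and 19.9% lower over all tested genes. Of 11 neuronal markers tested, 7 were lower and Tubb3 was higher, and the 12 genes of that list summed to 951 to 1194 normalized counts in sham and 532 to 852 after BDL. Islet and enteroendocrine markers were lower for 11 of 12, with sums of 10659 to 181857 in sham and 245 to 14033 after BDL, and all 15 acinar markers were lower. Schwann cell markers were lower for 3 of 6, endothelial markers for 4 of 5 and smooth muscle markers for 2 of 5. Fibroblast markers were lower for 2 of 7, among them the matrix gene Dcn with a log2 fold change of -3.34. The other 5 fibroblast markers did not pass, with Col1a1 at 0.75 and Col1a2 at -0.34. Of 10 biliary epithelial markers 7 were higher and Sox9 was lower (-0.50, adjusted p = 0.0198). Of 8 leukocyte markers 4 were higher, with the neutrophil gene S100a8 at 5.65, and 1 was lower, the T cell gene Cd3e at -3.05. The other 3 leukocyte markers did not pass, with Csf1r at -0.95 and Ptprc at 0.76. The part of these cells in the changes of transport and ciliary kinesins was not tested. When the log2 acinar level, which itself separates the groups, was added to the fit, none of the 6 transport members was called lower, with adjusted p from 0.0703 (Kif13b) to 0.455 (Kif3c). All 6 kept a negative log2 fold change, at -2.53 for Kif5a, -0.55 for Kif13a and -0.46 for Kif1b, close to or larger than in the fit reported, and at -1.80 for Kif5c (adjusted p = 0.111), -0.78 for Kif13b and -0.63 for Kif3c, and the SEs of the 6 were 1.70 to 2.03 times as large. Kif5b was not called in that fit either (log2 fold change 0.56, adjusted p = 0.128), and of the lower ciliary members Kif27 alone was (log2 fold change -6.14, adjusted p = 0.0415).

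Among the other kinesins, Kif12 stood out by its level, the second highest of the family per kb in sham. Kif12, a gene of cholangiocytes and kidney tubules that is linked in humans to cholestatic disease (ENSMUSG00000028357, chromosome 4 from 63083867 to 63090376), had 839.7, 722, 604 and 643 in sham and 786, 1165, 757, 806 and 666 after BDL. BDL 4 was highest, the other BDL libraries lay within the sham range, and the log2 fold change of 0.29 (95% interval -0.12 to 0.70, adjusted p = 0.238) did not pass. BDL 4 was also the library of highest summed biliary epithelial markers, 484818 normalized counts against 324990 to 406736 in the other BDL libraries.

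Kif21a, a regulator of microtubule growth at the cell cortex (ENSMUSG00000022629, chromosome 15 from 90817437 to 90934218), had 389, 604, 359 and 851 in sham and 228, 387, 259.6, 277 and 285 after BDL. It fell with a log2 fold change of -0.91 (SE 0.26, adjusted p = 0.0184), BDL 4 lay above sham 5, and the call ended without sham 2 (adjusted p = 0.0578), sham 7 (0.0938) or BDL 3 (0.0518). Kif26a, a kinesin without motor activity that acts in enteric neurons (ENSMUSG00000021294, chromosome 12 from 112112642 to 112148181), had 65.9, 81.6, 89.1 and 59.9 in sham and 22.6, 14.7, 37.0, 51.5 and 38.7 after BDL. Its log2 fold change was -1.13 (SE 0.39, adjusted p = 0.0424), and the call held only without BDL 4 or BDL 8 when 1 library was left out (adjusted p from 0.0517 to 0.127 in the other 7 fits).

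Kif2a, a depolymerase that is active outside mitosis too, had 188 to 277 in sham and 258 to 312 after BDL and did not pass (log2 fold change 0.31, adjusted p = 0.168). Its value is uncertain, as exons of Dimt1, which rose with a log2 fold change of 1.53, cover 41.1% of its exon bases on the other strand. Kif26b had 0 to 36.7 in sham and 16.4 to 76.7 after BDL (log2 fold change 1.62, adjusted p = 0.188). Kif21b lies 288.32 kb from Kif14 on chromosome 1, closer than any other pair of members. It had 83.0, 79.8, 98.3 and 62.2 in sham and 78.1, 36.9, 64.4, 84.6 and 50.4 after BDL (log2 fold change -0.32, adjusted p = 0.448), so that only Kif14 of this pair rose. Kif19b had 0 counts in every library and Kif28 had 1 count in all.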

How the data were processed

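Whole EHBD RNA (4 ng) was turned into SMART-Seq mRNA libraries, read as 151 bp pairs. Salmon quantified the trimmed reads on Gencode transcripts of GRCm39, and tximeta gave gene totals. These totals are estimated counts, which the authors deposited as whole numbers with no normalization or filter, in a sheet without columns of other samples. The version of Salmon was not given in the sources used here. Sample labels gave the surgery and the deposited sample sheet the sex. Each library came from 1 mouse, so p-values measure the spread between these mice, and the total counts per library were 23067967 to 29991945.

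In R 4.3.3, edgeR 4.0.16 (quasi-likelihood test, TMM normalization, terms for surgery and sex) was fitted to genes with a summed count of 10 or more, with Benjamini-Hochberg adjustment over all tested genes. A call is an adjusted p under 0.05. The SE of a log2 fold change is its size over the square root of F. Normalized counts are counts over the size factors of DESeq2 1.42.0. The tests were tried on simulated counts with known changes. Only a small set of well-expressed genes was changed there, unlike the many changes in these data, and its rates are not given here. Alternatives were DESeq2, limma-voom (limma 3.58.1), RLE and upper-quartile scaling, scaling to genes under 0.5% of the counts, no filter and a stricter filter on low counts, fits without the sex term or with the acinar level added, each sex alone, the form of the mouse number (added after seeing the data), other thresholds and each library left out.

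Classes follow textbook roles, and names and coordinates come from GENCODE vM39 on GRCm39, which held 55261 of the 55822 IDs. Levels per kb use the length of the canonical transcript, not the effective length of each library. Motifs were searched in the 250 bases before the start of the canonical transcript of 21576 protein-coding genes. Every member is named. Values in each library are given for called mitotic members, for up to 5 called members of smallest p in each direction of the other classes, for the member of highest level per kb in each class and for Kif12, and of each partner list the 4 of smallest p in each direction are named. Libraries of Kif5a, Kif21b, Ccp110 and the spindle partners, and the log2 fold changes of further partners, were added after their values were seen. The members, classes and lists were chosen with earlier results of these data known.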

Additional observations from a re-analysis of the deposited data

Results flagged for a closer look

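In each group of 4 or 5 libraries, the gap between the highest or lowest library and its nearest neighbor was set against the range of the group for the 36 tested members. Of 71 groups examined, 7 held a library that stood apart, and chance marks about 1 in 20 groups. Sham 7 was high in Kif19a (92.2 normalized counts, next 27.4), and sham 5 was high in Kif2c (27.5, next 5.99) and in Kif13a (899, next 657). Sham 1 was low in Kif1b (1219, next 1432). After BDL, library 6 was high in Kif27 (22.6, next 6.20), library 4 was high in Kif12 (1165, next 806), and library 3 was low in Kif13a (409, next 494).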

How the results depend on the processing

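The 11 mitotic calls and the call of Kif24 kept their direction under each of the 24 alternative fits, and Kif14 in females alone and Kif4 in the libraries with short mouse numbers (adjusted p = 0.0512) were the exceptions that missed the threshold. The median over all genes shifted by -0.15 with upper-quartile scaling, and no member turned its direction under that scaling. Fits without 1 library gave 3892 to 4523 higher and 3284 to 4226 lower genes over all genes, 13 higher and 7 to 12 lower kinesins, 1 to 4 lower ciliary, 5 to 7 lower transport and 0 to 2 lower other members.

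Against 4565 higher and 4245 lower genes in the fit reported, the acinar term left 1337 higher and 476 lower, females alone 1747 and 1217, short mouse numbers alone 1946 and 1284, a fold above 2 gave 2260 higher and an adjusted p under 0.01 gave 2519 lower. Against 12 lower kinesins, DESeq2 and upper-quartile scaling gave 14 each, the acinar term left 1 (1 ciliary, 0 transport and 0 other), short mouse numbers alone 2 (0, 2 and 0), long ones alone 5 (1, 3 and 1), females alone 3 (0, 3 and 0), males alone 4 (0, 3 and 1), leaving out sham 2 and 7 together 6 (with 1 ciliary and 0 other), and an adjusted p under 0.01 left 3 (0, 3 and 0). Of the 11 calls lost with the acinar term, all kept their direction, from -0.38 (Kif19a) to -2.53 (Kif5a), with SEs 1.61 to 2.05 times as large. The single higher transport member, Kif5b, was not called with the acinar term, in females alone, with short mouse numbers alone or at a fold above 2 (0 each), and a fold above 2 left 1 lower other member. Males alone and long mouse numbers alone each gave 1 higher other member, Kif26b. The fits by mouse number were chosen after seeing the data.

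Directions turned for 4 members that were not called. Kif6 had log2 fold changes of 0.80 with limma-voom, 0.28 with the acinar term, 0.64 in females alone, 0.31 with short mouse numbers, 1.90 without sham 2 and 7, and from -0.53 (without sham 1) to 1.51 (without sham 2) with 1 library left out, with 0.12 without BDL 3. Kif12 had -0.041 with the acinar term and -0.070 in males alone and -0.017 with long mouse numbers, Kif26b had -0.14 with short mouse numbers, and Kif21b had 0.30 with the acinar term. The cause of these shifts was not tested. Among the mitotic members Kif2c was at 5.31 in females and 7.75 in males, and Kif4 at 4.90 in females.

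The paper states that mice were matched by age and sex, with littermates as controls where possible. No paired analysis was made, because the labels do not say which mice were matched. Fits within 1 sex or 1 form of mouse number hold 4 or 5 libraries. Kif2b, Kif19b and Kif28 had too few counts for a test, and the acinar share does not overlap between the groups, so that it and surgery cannot be told apart.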
